A study of Homo sapiens with 6 samples.

Results

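The 10 genes described here are those of the 5 subunits of the transcription factor NF-kB (RELA, RELB, REL, NFKB1 and NFKB2) and 5 genes grouped as its inhibitors (NFKBIA, NFKBIB, NFKBIE, NFKBIZ and TNFAIP3). NFKBIZ is grouped there by family, though its nuclear product also takes part in the induction of some targets. The 10 genes were taken by symbol from a table of 58735 genes, and all 10 had enough counts to be tested among 15160 genes. The table holds counts from poly(A)-selected RNA of ACHN cells, a single human renal carcinoma line that the labels call clear cell renal cell carcinoma. In 3 libraries the cells had been treated with curcumol, a sesquiterpenoid of Curcuma rhizomes, at a dose and for a time that the sources used here do not state. The other 3 libraries are the control, described as a vehicle control in the sample labels and as untreated in the design text. Both groups are wild-type for genotype in the labels and are said to be independent biological replicates, and the study set out to examine curcumol in relation to glycolysis and malignant behaviour.

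NF-kB subunits bind DNA as pairs. In resting cells most pairs are held in the cytoplasm by inhibitors of the IkB family, which cover the signal for nuclear import. Signals from receptors such as those for TNF and interleukin 1 activate IkB kinases, the IkB protein is phosphorylated, tagged with ubiquitin and degraded, and the freed pair enters the nucleus. Several inhibitor genes are themselves NF-kB targets, which gives the pathway a negative feedback. In kidney epithelium and renal carcinoma the pathway is known for control of chemokines and of survival genes.

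Because NF-kB targets are known for kB sites near their start, the promoter windows of the genes were read from RefSeq (GRCh38.p14, 250 bases before to 50 bases after each annotated start). Windows were found for 8 of the 10 genes, 14 windows in all, but not for RELB and NFKBIE. The motif GGGNNTTTC, searched on both strands, was in at least 1 window of 7 of these 8 genes. Over all genes in the table of promoters 5.78% of 27305 have a window with it, and it is in 4.78% of 35116 windows. In 5 genes (NFKBIA, NFKBIZ, NFKBIB, NFKB1 and REL) a match read GGGAATTTC, which 0.392% of all genes hold. The degenerate kB consensus, which overlaps these matches, was also found in 7 of the 8 genes, where 13.3% of all genes hold it. RELA had neither in its windows. The motif was chosen after the matches of several kB motifs had been seen, so its share among these genes is a description. The stretches that hold the matches are printed here because genes with the same match went in opposite directions in the counts. Capitals mark the match, which reads as the reverse complement where it lies on the other strand.
NFKBIA, chr14:35404811-35404839, minus strand: gactggcttgGAAATTCCCcgagcctgac
NFKBIZ, chr3:101827757-101827785, plus strand: tttttggtctGGGAATTTCcagtgtgcag
NFKBIB, chr19:38899931-38899959, plus strand: gggcgtggtgGGGAATTTCccgcagggcg
NFKB1, chr4:102501300-102501328, plus strand: cgacgtcagtGGGAATTTCcagccaggaa
REL, chr2:60881519-60881547, plus strand: tcagccgcggGAAATTCCCctcccgccag
NFKB2 middle start, chr10:102394490-102394518, plus strand: gggccgagaaGGGGCTTTCccggccctga
NFKB2 downstream start, chr10:102395674-102395702, plus strand: tggtattttcGGGACTTTCctaagctgct
TNFAIP3, both matches, chr6:137867189-137867217, plus strand: tttgGAAAGTCCCgtgGAAATCCCCgggc

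A match describes letters in a window and is no measurement of binding. NFKBIA had matches that began 177, 80 and 50 bases before its start, of which the middle one is the stretch given, and NFKBIZ had its match 223 bases before. The match of NFKB1 began 49 bases before its start, that of REL 45, that of NFKBIB 28 and those of TNFAIP3 66 and 54 bases before. NFKB2 had a match 78 bases before its middle start, and 1 at 21 and 1 at 229 bases before its downstream start. The window with a match in NFKBIB belongs to the downstream of its 2 starts. For NFKBIA and NFKBIZ, the 2 genes of the 10 that fell most, the 250 bases before the start are given in full, again with the matches in capitals.
NFKBIA, chr14:35404750-35404999, minus strand: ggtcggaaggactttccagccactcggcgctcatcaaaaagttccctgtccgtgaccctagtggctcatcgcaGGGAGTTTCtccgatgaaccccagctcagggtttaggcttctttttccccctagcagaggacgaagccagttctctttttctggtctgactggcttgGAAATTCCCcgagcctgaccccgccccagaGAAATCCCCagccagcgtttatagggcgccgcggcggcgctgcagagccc
NFKBIZ, chr3:101827740-101827989, plus strand: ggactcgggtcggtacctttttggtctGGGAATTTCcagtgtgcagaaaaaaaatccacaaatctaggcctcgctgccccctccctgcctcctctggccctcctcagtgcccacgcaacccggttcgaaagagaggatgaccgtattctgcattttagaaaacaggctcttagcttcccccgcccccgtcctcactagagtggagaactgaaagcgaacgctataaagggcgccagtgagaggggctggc

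**Figure D1:**
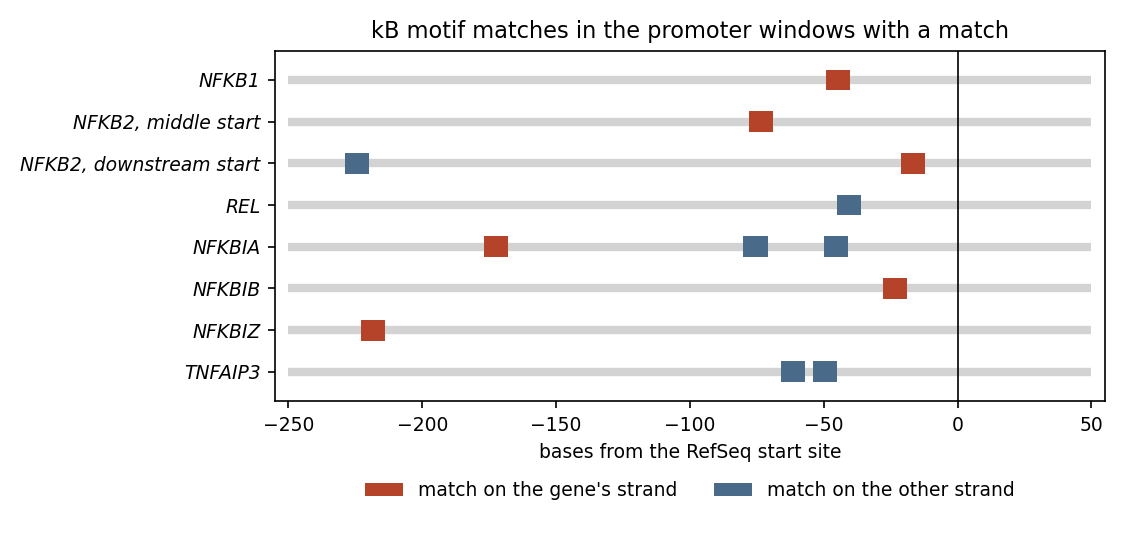
Position of each GGGNNTTTC match in the promoter windows that hold one, in bases from the RefSeq start (horizontal axis). Grey lines are the windows, red blocks are matches on the strand of the gene and blue blocks are matches on the other strand. NFKBIA has 3 matches, TNFAIP3 a close pair, and most matches lie within the 80 bases before the start.

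The largest changes were those of NFKBIA and NFKBIZ, which fell, and of NFKBIB, which rose. NFKBIE and TNFAIP3 did not pass the test. Among the subunits NFKB1 fell, RELA and REL rose, and NFKB2 and RELB fell slightly. In counts, 3 of the 10 genes rose and 5 fell (edgeR quasi-likelihood test, adjusted p under 0.05). In all, 79.7% of the genes tested passed that threshold, 39.4% higher and 40.3% lower, so a call alone does not set these genes apart. The groups did not overlap for 8 of the 10 genes, where 81.0% of tested genes had groups that did not overlap. The median log2 fold change was -0.11 for the 10 genes and -0.02 for all genes tested. With an offset for the GC content of each gene 6 of the 10 genes rose and 3 fell, so their split between directions depends on that choice. Over all tested genes 5826 rose and 6210 fell with that offset, against 5967 and 6109 without it. In bulk RNA, fewer cells of a type and less RNA per cell cannot be told apart.

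The libraries held 16962012 to 17827433 counts. TMM scaling factors were 0.900 to 0.919 in curcumol and 1.089 to 1.103 in control. The median log2 fold change of all genes was -0.28 when libraries were scaled by their totals, against -0.02 with TMM. Genes of higher GC content tended to have lower log2 fold changes (Spearman rho -0.34 over 15154 genes, which are not independent). The GC content of the longest transcript ran from 38.7% in REL to 65.4% in RELB. Of the 11 renal epithelial markers 10 were above 1 CPM, PAX8 and keratin genes among them, while CA9, a marker of clear cell carcinoma, had 5 counts over the curcumol libraries and 1 over the control libraries. The 6 leukocyte markers summed to 5.12 to 5.84 CPM in curcumol and 0.108 to 0.258 CPM in control, with CD14 at 4.54 CPM in curcumol and 0.086 CPM in control and CD3E at 0 in both. The 4 endothelial markers summed to 0.128 to 0.821 CPM in curcumol and 0.0516 to 0.155 CPM in control, and the 5 fibroblast markers to 7.62 to 17.6 CPM in curcumol and 7.07 to 8.29 CPM in control. The 11 renal markers summed to 3606.4 to 4094.2 CPM in curcumol and 5328.6 to 5691.7 CPM in control. The part of these markers, of the scaling factors and of the GC trend in the changes described here was not tested.

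NFKBIA encodes IkB alpha, the inhibitor that is degraded first and resynthesised as an NF-kB target (ENSG00000100906, chromosome 14, 35401511 to 35404749, GRCh38). It had 282, 276 and 289 counts in the curcumol libraries, against 1241, 1403 and 1167 in the control libraries. All curcumol values were far below the lowest control value, and they lay close together. As counts scaled by TMM to a common library size (CPM) it averaged 17.9 ± 0.485 in curcumol and 66.5 ± 6.08 in control (SD, n = 3 each). Its log2 fold change was -1.89 ± 0.09 (SE; adjusted p = 2.68e-14, edgeR), which made it 3.72-fold lower in curcumol. In this fit it was the largest change among the 10 genes, whereas with the GC offset NFKBIB changed more (2.14, against -1.66), and 9.26% of the genes tested had a lower log2 fold change. Over all alternatives it stayed between -2.16 and -1.65.

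NFKBIB encodes IkB beta, another cytoplasmic inhibitor, which is not known for the rapid feedback of IkB alpha (ENSG00000104825, chromosome 19, 38899700 to 38908893). It had 1123, 1057 and 1113 counts in curcumol, against 456, 433 and 497 in control. Every curcumol library was above every control library. It averaged 69.5 ± 2.86 CPM in curcumol and 24.2 ± 1.69 CPM in control (SD, n = 3 each). The log2 fold change was 1.52 ± 0.08 (SE; adjusted p = 2.32e-13, edgeR), or 2.88-fold higher, and it stood at 2.14 with the GC offset. NFKBIB shares 40 exonic bases with SIRT2 on the other strand, and no source says whether strand was used in counting.

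NFKBIE encodes IkB epsilon, a cytoplasmic inhibitor that is also an NF-kB target. It had 226, 223 and 231 counts in curcumol, against 244, 317 and 246 in control. After scaling the groups overlapped, at 14.4 ± 0.31 CPM in curcumol and 14.1 ± 2.0 CPM in control (SD, n = 3 each). Its log2 fold change was 0.03 ± 0.12 (SE; adjusted p = 0.829, edgeR). With the GC offset it rose by 0.67 (edgeR adjusted p = 7.29e-06), and with library totals it stood at -0.24, so its direction depends on the scaling.

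Per kilobase of exon, a scale on which genes can be compared, NFKBIA stood at 7.53 ± 0.205 CPM per kb in curcumol and 28.0 ± 2.56 in control (SD, n = 3 each). NFKBIB stood at 29.9 ± 1.23 CPM per kb in curcumol and 10.4 ± 0.726 in control. NFKBIA was the most abundant of the 3 in every control library and NFKBIB in every curcumol library. Their summed level was 43.0 ± 1.52 CPM per kb in curcumol and 43.9 ± 2.55 in control, a difference smaller than the spread between replicates. With library totals, an alternative added after the data were seen, the sum was 39.2 ± 1.21 CPM per kb in curcumol and 48.0 ± 2.48 in control, a difference above that spread. Shares of this sum are the same with TMM and with library totals. The GC offset, which differs between genes, was not applied to them. NFKBIB took 70.1%, 69.2% and 69.4% of the sum in the curcumol libraries, against 24.1%, 20.7% and 26.7% in the control libraries. NFKBIA took 17.2%, 17.7% and 17.6% in curcumol, against 64.3%, 65.7% and 61.4% in control.

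A ratio of 2 genes within a library does not depend on the scaling between libraries, though GC content can still touch it. There were 3.98, 3.83 and 3.85 NFKBIB counts per NFKBIA count in curcumol, against 0.367, 0.309 and 0.426 in control. The difference of log2 ratios was 3.42 (exact two-sided permutation test, p = 0.1, adjusted p = 0.114 over 8 pairs). With 3 libraries a group, 0.1 is the smallest p that this test can give, so it cannot pass 0.05. NFKBIE per NFKBIA differed by 1.93 on the log2 scale with the same exact p of 0.1, and its groups did not overlap.

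**Figure D2:**
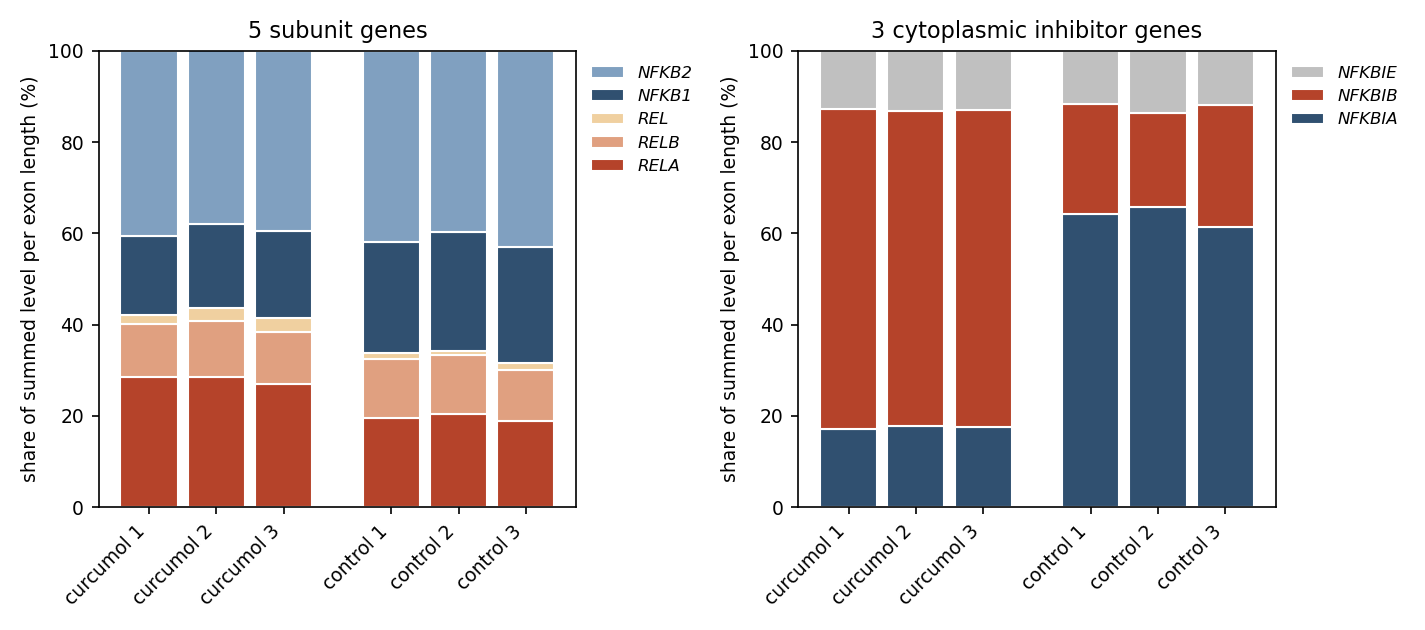
Share (%) of each gene in the summed level per exon length in every library, for the 5 subunit genes (left) and the 3 cytoplasmic inhibitor genes (right), with curcumol libraries left of control libraries. NFKBIB takes 69.2% to 70.1% of the inhibitor sum in curcumol libraries and 20.7% to 26.7% in control libraries.

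NFKBIZ encodes IkB zeta, a nuclear member of the family that binds NF-kB on DNA and takes part in the induction of IL6 and other secondary targets (ENSG00000144802, chromosome 3, 101827991 to 101861022). It had 816, 944 and 947 counts in curcumol, against 2448, 2751 and 2966 in control. The highest curcumol library lay below the lowest control library. It averaged 57.1 ± 4.2 CPM in curcumol and 142.2 ± 10.7 CPM in control (SD, n = 3 each). The log2 fold change was -1.32 ± 0.07 (SE; adjusted p = 5.22e-13, edgeR), or 2.49-fold lower, and it stayed between -1.58 and -1.26 over all alternatives.

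TNFAIP3 encodes A20, a ubiquitin-editing enzyme that ends signalling upstream of the IkB kinases. It had 211, 242 and 259 counts in curcumol, against 248, 328 and 253 in control. The groups overlapped after scaling, at 15 ± 1.43 CPM in curcumol and 14.4 ± 2.15 CPM in control (SD, n = 3 each). Its log2 fold change was 0.06 ± 0.13 (SE; adjusted p = 0.687, edgeR), between -0.21 and 0.19 over the alternatives. Set against NFKBIA, another feedback inhibitor, there were 0.748, 0.877 and 0.896 TNFAIP3 counts per NFKBIA count in curcumol, against 0.200, 0.234 and 0.217 in control. Every curcumol library had more TNFAIP3 per NFKBIA than any control library (log2 difference 1.95, exact permutation p = 0.1).

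**Figure D3:**
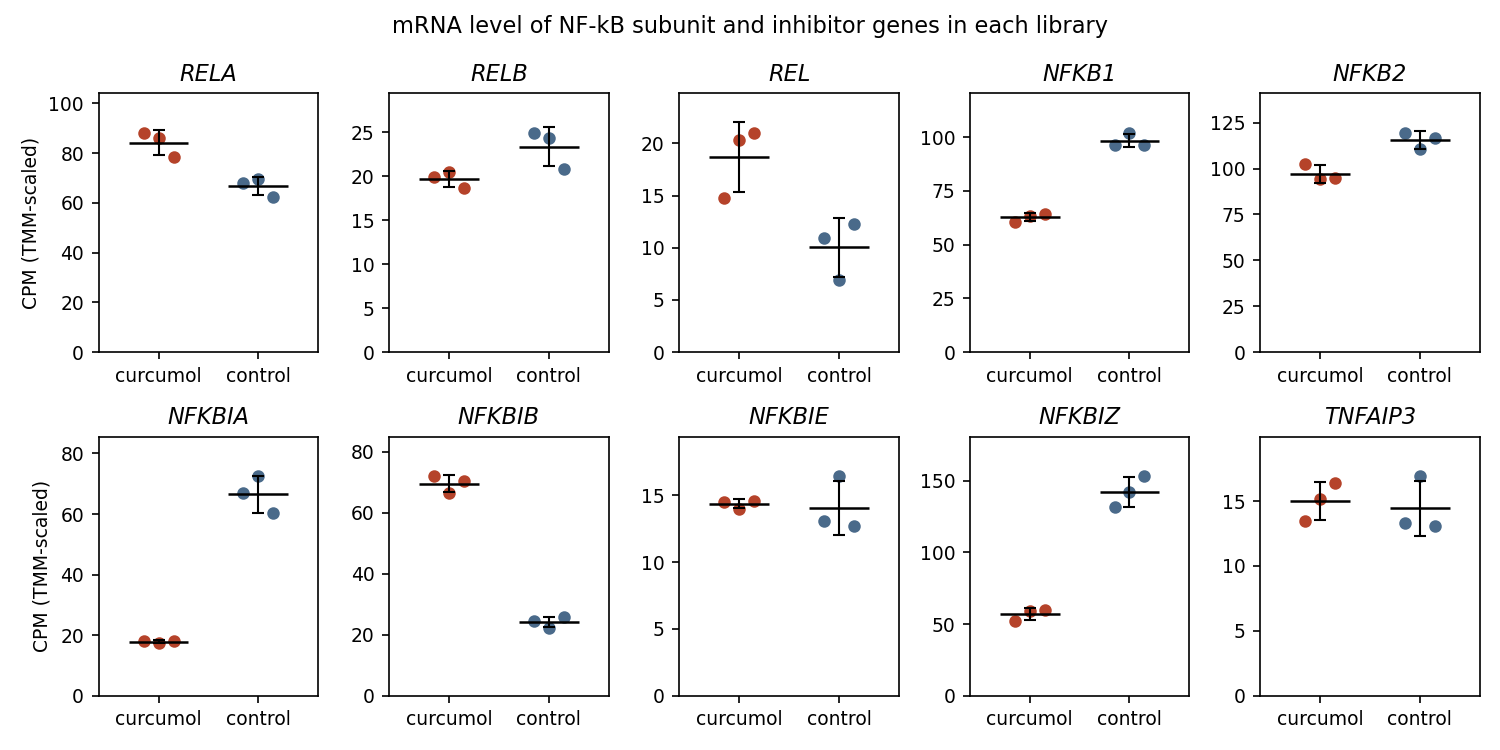
Level of each of the 10 genes in CPM after TMM scaling (vertical axis, from 0), with curcumol libraries in red on the left and control libraries in blue on the right. Points are libraries, the line is the mean and the bar is 1 SD (n = 3 each). NFKBIA, NFKBIB, NFKBIZ and NFKB1 show the widest gaps between the groups for their spread, while NFKBIE and TNFAIP3 overlap.

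Among the subunits, RELA encodes p65, which carries a transactivation domain and makes up the classical pair with the NFKB1 product. RELA had 1376, 1372 and 1244 counts in curcumol, against 1262, 1345 and 1210 in control. The raw counts overlapped, whereas the scaled values did not, at 84.3 ± 5.06 CPM in curcumol and 66.6 ± 3.65 CPM in control (SD, n = 3 each). Its log2 fold change of 0.34 ± 0.07 (SE; adjusted p = 0.000212, edgeR) was 0.07 with library totals (edgeR adjusted p = 0.338) and 0.80 with the GC offset. RELA was thus called higher with TMM scaling and not with library totals.

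NFKB1 encodes the precursor of p50, the DNA-binding partner of p65 (ENSG00000109320, chromosome 4, 102501329 to 102617302). It had 944, 1010 and 1014 counts in curcumol, against 1794, 1975 and 1870 in control. The groups were well apart, at 62.6 ± 1.90 CPM in curcumol and 98.3 ± 3.09 CPM in control (SD, n = 3 each). The log2 fold change was -0.65 ± 0.07 (SE; adjusted p = 1.21e-08, edgeR), or 1.57-fold lower, and it lay between -0.92 and -0.57 over all alternatives. Among the subunit genes its log2 fold change had the narrowest range over these alternatives. There were 0.686, 0.736 and 0.815 NFKB1 counts per RELA count in curcumol, against 1.42, 1.47 and 1.55 in control (log2 difference -0.99, exact permutation p = 0.1).

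REL encodes c-Rel, a subunit best known from lymphocytes. PTPRC, which marks leukocytes, had 20 counts over the curcumol libraries and 0 over the control libraries, and its part in the REL values was not tested. It was the subunit gene with fewest counts, with 231, 324 and 332 in curcumol and 203, 134 and 239 in control. Curcumol replicate 1 and control replicate 3 lay near each other at 14.8 and 12.3 CPM, and the groups did not overlap after scaling. It averaged 18.7 ± 3.40 CPM in curcumol and 10.1 ± 2.81 CPM in control (SD, n = 3 each), a log2 fold change of 0.90 ± 0.19 (SE; adjusted p = 0.000829, edgeR). With the GC offset the change was 0.34 (edgeR adjusted p = 0.0413), so its size depends on that choice. The ratio of REL to RELA counts differed by 0.58 on the log2 scale with overlapping groups (exact permutation p = 0.2), and by 0.30 without control replicate 2.

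NFKB2 and RELB encode the precursor of p52 and its usual partner, the pair of the noncanonical pathway. NFKB2 had 1601, 1500 and 1499 counts in curcumol, against 2219, 2141 and 2264 in control. It averaged 97.1 ± 4.70 CPM in curcumol and 115.6 ± 4.61 CPM in control (SD, n = 3 each). Its log2 fold change of -0.25 ± 0.06 (SE; adjusted p = 0.00139, edgeR) turned to 0.44 with the GC offset (edgeR adjusted p = 2.73e-08).

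RELB had 310, 326 and 296 counts in curcumol, against 463, 472 and 403 in control. It averaged 19.7 ± 0.904 CPM in curcumol and 23.4 ± 2.23 CPM in control (SD, n = 3 each), with a log2 fold change of -0.25 ± 0.10 (SE; adjusted p = 0.032, edgeR). The value turned to 0.54 with the GC offset (edgeR adjusted p = 8.04e-06), and the call was lost with DESeq2 (adjusted p = 0.103), with DESeq2-type size factors in edgeR (adjusted p = 0.0644) and without control replicate 1, control replicate 2 or curcumol replicate 3 (edgeR adjusted p = 0.115, 0.108 and 0.106). RELB and NFKB2 are the members with the highest GC content, at 65.4% and 62.4%. The direction of both thus depends on the GC offset.

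**Figure D4:**
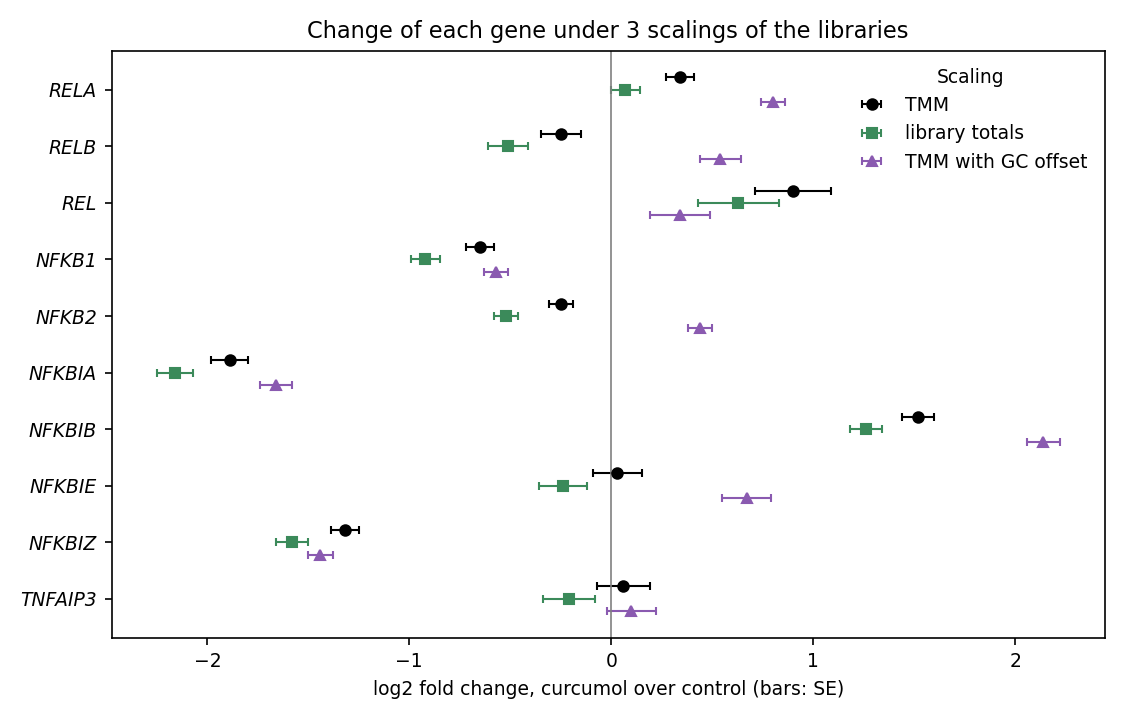
Log2 fold change, curcumol over control (horizontal axis), of the 10 genes with its standard error under TMM scaling, library totals and TMM with a GC offset. NFKBIA, NFKBIZ and NFKB1 stay below 0 and NFKBIB and REL above 0 under all 3, while NFKB2 and RELB are below 0 under the first pair of scalings and above 0 with the GC offset.

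Set in order per kilobase of exon, the subunit genes of the curcumol libraries ran from NFKB2 (21.7 ± 1.05 CPM per kb) over RELA (15.4 ± 0.927), NFKB1 (10 ± 0.304) and RELB (6.48 ± 0.298) to REL (1.42 ± 0.258). In the control libraries NFKB2 led (25.8 ± 1.03), followed by NFKB1 (15.7 ± 0.494), RELA (12.2 ± 0.668), RELB (7.70 ± 0.734) and REL (0.764 ± 0.214), all SD with n = 3. RELA and NFKB1 exchanged places between the groups, and no neighbours in either order overlapped within 1 SD. All annotated exons were joined, which gives REL a length of 13170 bases and may understate it. Of these, 5702 are shared on the same strand with AC010733.2, which had 0 counts, and how reads in shared bases were counted is not stated. The share of RELA in the sum of the 5 was 28.6%, 28.6% and 26.9% in curcumol, against 19.6%, 20.4% and 18.8% in control. That of NFKB1 was 17.2%, 18.4% and 19.1% in curcumol, against 24.3%, 26.2% and 25.4% in control. RELB per RELA differed by -0.58 on the log2 scale, NFKB2 per NFKB1 by 0.40 and NFKBIA per RELA by -2.23, each with groups that did not overlap and the exact p of 0.1. There were 0.205, 0.201 and 0.232 NFKBIA counts per RELA count in curcumol, against 0.983, 1.04 and 0.964 in control. These are ratios of counts, which serve to compare the groups and not the levels of both genes.

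Of the 10347 other genes with a mean of at least 100 counts, those with the pattern nearest to NFKBIA over the 6 libraries were VPS25, SEPTIN8 and AXL. Their log2 fold changes were -1.94, -1.91 and -1.88, and the distances of centred log2 CPM were 0.125, 0.132 and 0.137. Nearest to RELA were ATG16L1, RAB35 and SDF4, with log2 fold changes of 0.31, 0.31 and 0.33 and distances of 0.045, 0.075 and 0.080. These genes were picked by that distance, so log2 fold changes near those of NFKBIA and RELA follow from the choice.

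Upstream of the inhibitors, 6 of 11 genes for kinases and their scaffolds rose and 3 fell (median log2 fold change 0.27), or 5 and 5 with library totals and 5 and 4 with the GC offset. Over all tested genes 39.4% rose and 40.3% fell with TMM, so the share called in this list with TMM was near that of all genes. Over all tested genes 4818 rose and 7372 fell with library totals, and 5826 rose and 6210 fell with the GC offset. The IkB kinase subunits differed. CHUK, which encodes IKK alpha, rose by 0.87 ± 0.08 on the log2 scale, with 105.4 ± 9.57 CPM in curcumol and 57.7 ± 3.78 CPM in control (SD, n = 3 each, edgeR adjusted p = 1.11e-09), and by 0.21 with the GC offset. IKBKB, which encodes IKK beta, the main kinase of IkB alpha, averaged 25.0 ± 0.143 CPM in curcumol and 40.7 ± 0.241 CPM in control, a log2 fold change of -0.70 ± 0.08 (SE; adjusted p = 1.02e-07, edgeR). IKBKG, which encodes the scaffold NEMO, did not pass (-0.36 ± 0.17, edgeR adjusted p = 0.0529), but stood at -0.63 with library totals (edgeR adjusted p = 0.0018) and at 0.33 with the GC offset. It has a near-identical pseudogene, so its counts are uncertain.

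The IKK-related kinases moved apart too. TBK1 rose by 1.91 ± 0.08 and TANK, which binds it, by 1.81 ± 0.09 (log2, SE), or by 1.39 and 1.24 with the GC offset. IKBKE, a close relative of TBK1, changed by -2.47 ± 0.14 and TAB1, a partner of the kinase TAK1, by -1.44 ± 0.12 (log2, SE). With the GC offset IKBKE stood at -1.93 and TAB1 at -0.82. IKBKE averaged 3.36 ± 0.326 CPM in curcumol and 18.6 ± 0.853 CPM in control (SD, n = 3 each).

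Of 20 tested genes for receptors and adaptors 5 rose and 9 fell (median -0.18), or 5 and 14 with library totals, where 39.4% of all tested genes rose and 40.3% fell with TMM, and 4818 rose and 7372 fell of 15160 with library totals. TRAF6, the ubiquitin ligase of interleukin 1 and Toll-like receptor signalling, rose by 2.0 ± 0.10, with 43.4 ± 2.92 CPM in curcumol and 10.9 ± 0.167 CPM in control. IRAK1, the kinase before it in that chain, changed by -1.37 ± 0.08, or -0.66 with the GC offset. TRADD, the adaptor of the TNF receptor, changed by -1.53 ± 0.12, or -0.75 with the GC offset, and shares 126 exonic bases with FBXL8 on the other strand. TNFRSF12A, the receptor of TWEAK, changed by -0.94 ± 0.06, or -0.18 with the GC offset.

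In the ubiquitin list 12 of 19 genes rose and 5 fell (median 0.31), or 9 and 7 with library totals. With TMM 39.4% of all tested genes rose and 40.3% fell, and with library totals 4818 rose and 7372 fell of 15160. CYLD, a deubiquitinase that restrains NF-kB signalling, rose by 2.39 ± 0.08, with 157.6 ± 16.7 CPM in curcumol and 30.2 ± 1.59 CPM in control (SD, n = 3 each). TAX1BP1, an adaptor of A20 that shares 415 exonic bases with JAZF1 on the other strand, rose by 2.35 ± 0.08. SKP1 (1.48 ± 0.07) and FBXW11 (0.96 ± 0.06), parts of the ligase that marks phosphorylated IkB for degradation, rose as well. BIRC3, a ligase and NF-kB target, changed by -0.83 ± 0.09, or -1.55 with the GC offset.

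Among 5 other genes listed beside the IkB family 3 fell and 1 rose (median -0.45), or 1 and 1 with the GC offset. With that offset 6210 of all tested genes fell and 5826 rose. That 4 of 5 passed with TMM is near the 79.7% over all tested genes. BCL3, a nuclear IkB protein that partners the p50 and p52 subunits, changed by -0.93 ± 0.13 (edgeR adjusted p = 7.89e-07), but by -0.09 with the GC offset (edgeR adjusted p = 0.516). NFKBIL1, named for its likeness to IkB, changed by -0.51 ± 0.14 and turned to 0.24 with the GC offset. NKRF, a repressor, changed by -0.45 ± 0.10 and shares 956 exonic bases with UBE2A on the other strand. The ankyrin-repeat gene ANKRD42 rose by 1.69 ± 0.10 and shares 638 exonic bases with CCDC90B on the other strand.

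Of 35 target genes 29 had enough counts to be tested, and 17 of these fell and 5 rose (median -0.70). Over all tested genes 40.3% fell and 39.4% rose. With library totals 23 of the targets fell and 4 rose, where 7372 of all tested genes fell and 4818 rose. With the GC offset 20 of the targets fell and 6 rose, where 6210 of all tested genes fell and 5826 rose. The list was chosen with earlier results of these data known, so its share of falling genes is a description. CXCL2, a neutrophil chemokine, had 35, 15 and 25 counts in curcumol, against 973, 1205 and 1156 in control. IL6 had 155, 172 and 172 counts in curcumol, against 1613, 1887 and 1500 in control. Both genes lay far below their control values in every curcumol library. Both carry the GGGNNTTTC motif. The other pathway genes with this motif, some of which rose and some of which fell, are given below. The part of the motif in these changes was not tested. IL6 shares 428 exonic bases and PLAU 916 with genes on the other strand that had few counts. PLAU, the urokinase gene, changed by -2.79 ± 0.08 and LIF, a cytokine of the IL6 family, by -1.43 ± 0.07, or -0.98 with the GC offset. CXCL8, which encodes interleukin 8, fell too, with 83.2 ± 13.4 CPM in curcumol and 112.5 ± 10.6 CPM in control (log2 -0.44 ± 0.10, edgeR adjusted p = 0.000808), or -1.19 with the GC offset. ICAM1, an adhesion molecule, had 20, 10 and 23 counts in curcumol, against 30, 35 and 29 in control, and did not pass (log2 -0.55 ± 0.36, edgeR adjusted p = 0.166), or stood at -0.81 with library totals (edgeR adjusted p = 0.0437).

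**Figure D5:**
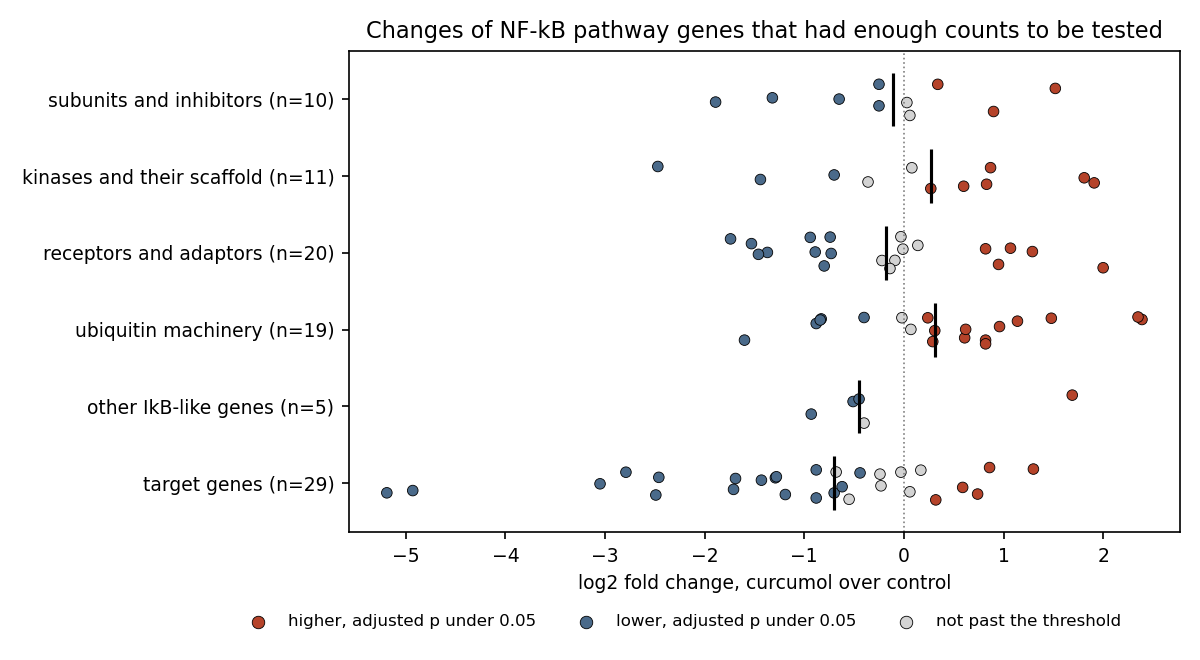
Log2 fold change, curcumol over control (horizontal axis), of each tested gene in the subunit and inhibitor set and in 5 lists of other pathway genes. Red and blue points passed the edgeR threshold as higher or lower, grey points did not, and black bars are list medians, from -0.70 for the target genes to 0.31 for the ubiquitin machinery.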

How the data were processed

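The authors deposited raw counts per Ensembl gene, not normalized, for 3 curcumol and 3 control libraries, poly(A)-selected and sequenced in pairs per the labels' protocols. Per the submitters' processing notes, reads were placed on GRCh38 (hg38). The aligner, the counter, its annotation and its use of strand: not given in the sources used here. All 58735 identifiers are in GENCODE 29, which gave exon lengths, overlaps and coordinates, and GC content for 58676. Libraries held 16962012 to 17827433 counts. Libraries of a group differed by more than counting error (chi-square over degrees of freedom 3.68 to 8.82). Precision is limited by the number of libraries, 3 a group, and at low counts by counting error.

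Genes were filtered with filterByExpr (15160 kept) and, after TMM scaling, tested by the quasi-likelihood method of edgeR 4.0.16 (R 4.3.3), Benjamini-Hochberg adjusted over all of them, at 0.05. SE is the absolute log2 fold change over the square root of F. The code was tested on simulated data. Alternatives were DESeq2 1.42.0, limma-voom (limma 3.58.1), 2 scalings, 2 filters, the replicate number as a block, a GC offset (5-df spline, fitted for each library) and each library left out. Of 2 identifiers named SOD2 the one with more counts was used. All 10 genes are named. Of each other list the 4 genes of smallest adjusted p with a mean of at least 100 counts and separate groups are named, and CHUK, IKBKB, IKBKG, CXCL8, ICAM1, BIRC3 and BCL3 whatever their result. The genes and lists were chosen with earlier results of these data known.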

Additional observations from a re-analysis of the deposited data

How the results depend on the processing

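NFKBIA, NFKBIZ, NFKB1, NFKBIB and REL kept their direction and their call under all 15 alternatives. With the GC content offset 6 of the 10 genes rose and 3 fell, and the counts were again 6 and 3 with the replicate block added to the offset, against 3 and 5. Over all genes 5826 rose and 6210 fell with the offset, and 5756 and 6152 with the block added, against 5967 and 6109. In the fits with the offset NFKB2 was reversed to 0.44 and 0.44, RELB to 0.54 and 0.55, and NFKBIE passed at 0.67 and 0.68. IKBKG was reversed to 0.33 in both, and NFKBIL1 to 0.24 in both. The cause was not tested. With library totals NFKBIE stood at -0.24 and TNFAIP3 at -0.21, and with no filter on low counts NFKBIE stood at -0.02, none past the threshold. With 1 library left out in turn, NFKBIE ranged from -0.05 to 0.15, TNFAIP3 from -0.03 to 0.19 and RELB from -0.34 to -0.21. Over all genes, calls were 4818 higher and 7372 lower with library totals, and the median log2 fold change was 0.20 with no filter on low counts, against -0.02. The replicate numbers share no stated batch, and same-numbered libraries did not deviate together (correlations 0.024, -0.012 and 0.075). With the replicate block alone 5955 genes were higher and 6131 lower, and 3 and 5 of the 10. With library totals, added after the data were seen, the summed inhibitor level differed by -8.85 CPM per kb, against -0.845 with TMM. ICAM1, with 10 to 35 counts a library, had an SE of 0.36.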

Other observations

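Among the other pathway genes, the motif GGGNNTTTC was in a promoter window of 9 of 27 target genes with a window and 4 of 17 genes of the ubiquitin list. It was in 2 of 18 receptors and adaptors, 2 of 10 kinases and scaffolds and 0 of 5 genes listed beside the IkB family. Over all genes in the table of promoters 5.78% have a window with it. NF-kB targets are known for kB sites, and the motif was chosen after matches had been seen, so these shares are a description. The genes named next were picked by the motif after their values were seen, so their changes are given as values. Of the target genes with it, CXCL1 had 67, 79 and 121 counts in curcumol, against 2926, 3696 and 3251 in control. CXCL3 had 24, 27 and 26 counts in curcumol, against 114, 98 and 89 in control. Both chemokine genes were far lower in every curcumol library, as CXCL2, IL6 and PLAU were. CSF2, which encodes the cytokine GM-CSF, and TNFAIP8 stood at -0.23 and -0.24 on the log2 scale and did not pass (edgeR adjusted p = 0.107 and 0.0573), and CCL20 and LTB had too few counts to be tested. The other genes with the motif went both ways. BIRC3 and TRAF3 changed by -0.83 and -0.89, TANK, CYLD, TICAM1 and CUL1 rose by 1.81, 2.39, 1.07 and 0.61, and IKBKG and TNIP1 did not pass (-0.36 and -0.02).

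The 5 targets that rose were, with their log2 fold changes, CCL2 (0.86), PTGS2 (1.30), SDC4 (0.59), SAA1 (0.74) and PTX3 (0.32), named after their values were seen. SAA1 and PTX3 encode acute phase proteins, and CCL2 a monocyte chemokine. PTGS2, the inducible cyclooxygenase, had few counts, with 13, 32 and 33 in curcumol and 12, 12 and 14 in control.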
